A study of Homo sapiens with 8 samples.

Results

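The distal long arm of chromosome 1 was taken as the peaks of 8 HP1 ChIP-seq lists that start on chr1 from 147 up to 243 Mb of the hg38 build. It held 63643 of the 1157865 listed peaks, or 5.50%, over 96 Mb and 865 protein-coding genes. The stretch of chr1 from 5 to 120 Mb, on the short arm, served for comparison with 115 Mb, 984 genes and 39476 peaks. The region was chosen by peak density, fold and the balance of the 2 proteins in these same lists, so those quantities are described and not tested.

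The cells were MCF10A, an established line of non-tumorigenic breast epithelial cells from the mammary gland. The 4 groups were HP1a ChIP in HP1b knockdown cells, HP1a ChIP in wild-type cells, HP1b ChIP in HP1a knockdown cells and HP1b ChIP in wild-type cells, each with 2 libraries numbered as replicates. The labels do not say that replicates were separate cultures, so any p-value measures only the spread between these libraries, which may be technical. How each knockdown was made, and whether it is 1 clone, is not given in the sources used here, and peak lists cannot show how far the targeted protein fell.

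HP1a (encoded by CBX5) and HP1b (encoded by CBX1) are paralogous chromatin proteins. Their chromodomain binds methylated lysine 9 of histone H3, and their chromoshadow domain lets them pair and recruit other repressors. Distal 1q is a mosaic of gene clusters, among them the epidermal differentiation complex, Fc receptor and SLAM family genes and the complement regulators, and of long gene-poor stretches. MCF10A cells are known to carry extra material of the long arm of chromosome 1. Copy number was not measured in these lists, and its part in the results was not tested.

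Sequence was read only in promoter windows, of which single libraries met 4 to 74 of 745 in distal 1q. The sequence of the other peaks was not read. The windows below, from 250 bases before to 50 bases after the start of the gene, come from RefSeq on GRCh38.p14 and are printed 5′ to 3′ on the strand of the gene, with each CG in capitals. SH2D1B, LELP1 and PRSS38 were the windows met in the most libraries. CRNN and S100A7 were among the windows met in all 4 wild-type libraries and in no knockdown library, and the others are not printed. ESRRG has the most CG of those met in at least 4 libraries.
SH2D1B: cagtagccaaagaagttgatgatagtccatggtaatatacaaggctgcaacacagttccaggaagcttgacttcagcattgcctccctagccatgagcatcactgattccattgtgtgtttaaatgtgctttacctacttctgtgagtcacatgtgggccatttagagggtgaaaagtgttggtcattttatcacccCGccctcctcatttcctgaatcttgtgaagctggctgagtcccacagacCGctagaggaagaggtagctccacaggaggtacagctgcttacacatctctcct
LELP1: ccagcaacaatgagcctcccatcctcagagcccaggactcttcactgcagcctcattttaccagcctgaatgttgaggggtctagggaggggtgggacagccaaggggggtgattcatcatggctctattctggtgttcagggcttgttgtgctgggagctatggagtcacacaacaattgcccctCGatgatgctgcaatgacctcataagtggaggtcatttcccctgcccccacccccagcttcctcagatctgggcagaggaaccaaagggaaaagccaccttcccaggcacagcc
PRSS38: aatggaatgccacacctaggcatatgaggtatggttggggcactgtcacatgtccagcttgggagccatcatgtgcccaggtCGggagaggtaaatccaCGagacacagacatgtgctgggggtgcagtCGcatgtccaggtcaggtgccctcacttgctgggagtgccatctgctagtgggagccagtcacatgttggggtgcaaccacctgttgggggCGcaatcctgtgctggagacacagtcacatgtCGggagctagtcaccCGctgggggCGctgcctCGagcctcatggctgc
CRNN: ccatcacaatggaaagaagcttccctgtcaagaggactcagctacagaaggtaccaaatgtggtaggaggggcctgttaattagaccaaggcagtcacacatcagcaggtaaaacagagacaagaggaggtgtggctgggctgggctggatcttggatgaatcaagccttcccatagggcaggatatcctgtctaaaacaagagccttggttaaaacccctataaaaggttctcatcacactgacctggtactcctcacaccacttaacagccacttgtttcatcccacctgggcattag
S100A7: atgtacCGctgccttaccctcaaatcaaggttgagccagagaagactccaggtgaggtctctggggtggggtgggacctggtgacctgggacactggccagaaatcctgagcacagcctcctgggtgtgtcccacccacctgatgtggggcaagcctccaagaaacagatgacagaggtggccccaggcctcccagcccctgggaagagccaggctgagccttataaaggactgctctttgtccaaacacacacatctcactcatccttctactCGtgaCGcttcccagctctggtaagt
ESRRG: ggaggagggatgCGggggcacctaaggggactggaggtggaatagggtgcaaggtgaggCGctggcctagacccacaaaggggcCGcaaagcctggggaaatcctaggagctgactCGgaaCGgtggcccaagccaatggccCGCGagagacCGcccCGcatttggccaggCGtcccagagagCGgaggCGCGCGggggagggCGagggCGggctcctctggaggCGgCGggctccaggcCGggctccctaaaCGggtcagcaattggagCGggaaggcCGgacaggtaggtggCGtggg

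SH2D1B, an adaptor of SLAM family receptors (chr1:162412087-162412386, minus strand), was met in 6 of 8 libraries and holds 2 CG. LELP1, in the epidermal differentiation complex (chr1:153203180-153203479, plus strand), was met in 5 libraries and holds 1 CG. CRNN (cornulin, chr1:152414214-152414513, minus strand) holds 0 CG and S100A7 (psoriasin, chr1:153460602-153460901, minus strand) holds 3. PRSS38, a serine protease gene (chr1:227815425-227815724, plus strand), holds 8 CG and was the window met in both HP1a libraries of HP1b knockdown cells but in neither HP1a library of wild-type cells. ESRRG (estrogen-related receptor gamma, chr1:217137653-217137952, minus strand) holds 23 CG and was met in both HP1b libraries of HP1a knockdown cells, in 1 wild-type HP1a library and in 1 wild-type HP1b library.

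Distal 1q was denser in peaks than chr1 5 to 120 Mb in all 8 libraries, while the number of genes per Mb was close (9.01 against 8.56). HP1a ChIP in HP1b knockdown cells listed 11.8 and 10.8 peaks per Mb of distal 1q, against 113 and 91.1 in wild-type cells. HP1b ChIP in HP1a knockdown cells listed 76.7 and 112 peaks per Mb, against 117 and 130 in wild-type cells. The HP1a groups did not overlap, and the HP1b groups did not overlap either, with the second knockdown library of HP1b close to the wild-type ones. On chr1 5 to 120 Mb the same 8 libraries had 5.91 and 5.54, 40.3 and 33.8, 43.4 and 67.6, and 71.6 and 75.1 peaks per Mb, in the order of the groups above.

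The density of distal 1q over chr1 5 to 120 Mb was 1.999 and 1.95 for HP1a in HP1b knockdown cells, against 2.81 and 2.70 in wild-type cells. It was 1.77 and 1.66 for HP1b in HP1a knockdown cells, against 1.63 and 1.73 in wild-type cells. Wild-type HP1a was thus the most concentrated on distal 1q among all listed peaks, and its libraries overlapped no other group. That order did not hold among strong peaks. With a −log10 q of at least 2 the ratio was 2.64 and 3.42 for HP1a in HP1b knockdown cells, 2.66 and 3.01 for HP1a in wild-type cells, 3.05 and 2.64 for HP1b in HP1a knockdown cells, and 3.21 and 2.62 for HP1b in wild-type cells, so all 4 groups overlapped. For HP1a in HP1b knockdown cells that limit left 33 and 20 peaks in distal 1q, and 15 and 7 on chr1 5 to 120 Mb. With a −log10 p of at least 4 the ratios lay between 2.17 and 2.71 in all 8 libraries. With the 19092 strongest peaks of every library the groups did not all overlap. The ratio was 2.03 and 1.95 for HP1a in HP1b knockdown cells, against 2.48 and 2.46 in wild-type cells. It was 2.86 and 3.41 for HP1b in HP1a knockdown cells, against 2.74 and 2.33 in wild-type cells.

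**Figure D1:**
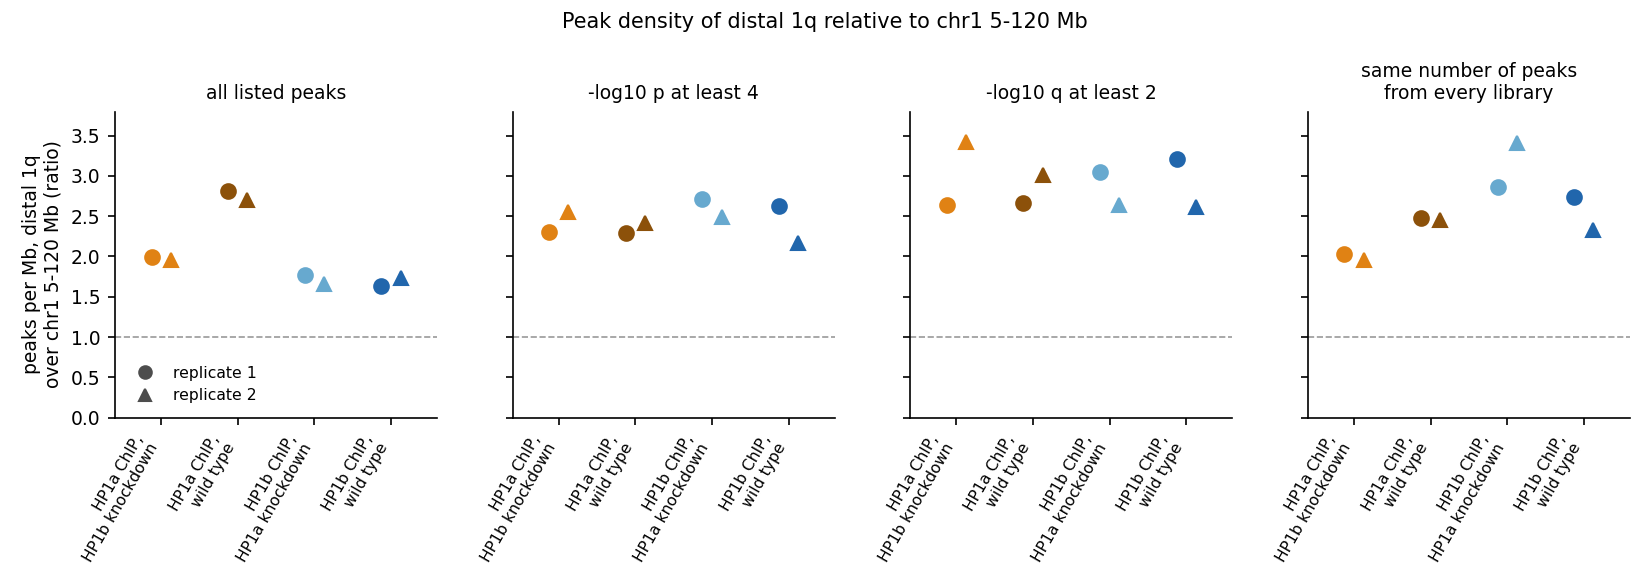
Peaks per Mb of distal 1q divided by peaks per Mb of chr1 5 to 120 Mb, 1 point per library (circle replicate 1, triangle replicate 2), for all listed peaks, 2 strength limits and an equal number of peaks from every library; the dashed line is a ratio of 1. Wild-type HP1a stands apart at 2.81 and 2.70 among all listed peaks. The groups overlap at a −log10 q of at least 2, where the 8 ratios lie between 2.62 and 3.42. With equal numbers HP1a in HP1b knockdown cells is lowest, at 2.03 and 1.95.

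Peaks covered 0.623 and 0.574% of distal 1q for HP1a in HP1b knockdown cells, against 7.503 and 5.85% in wild-type cells. They covered 5.99 and 8.41% for HP1b in HP1a knockdown cells, against 8.73 and 10.1% in wild-type cells. As a share of all peak-covered bases of a library, distal 1q took 6.05 and 5.70% for HP1a in HP1b knockdown cells, against 10.3 and 9.28% in wild-type cells. The share was 4.86 and 4.90% for HP1b in HP1a knockdown cells, against 5.30 and 6.19% in wild-type cells. Both knockdown groups lay below their wild type with no overlap. The share of chr1 5 to 120 Mb stayed between 2.93 and 3.41% in all 8 libraries.

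The balance of HP1a to HP1b in wild-type cells was 0.708 in covered bases of distal 1q (0.577 to 0.859 over the 4 pairs of libraries), against 0.398 (0.360 to 0.437) on chr1 5 to 120 Mb. As a ratio of library shares it was 1.71 on distal 1q, against 0.962 on chr1 5 to 120 Mb. With the other paralog knocked down, HP1a over HP1b was 0.0831 in covered bases of distal 1q, against 0.0734 on chr1 5 to 120 Mb, and the ratio of shares was 1.20 against 1.07. The lists differ in length by more than 10-fold, from 19092 to 240090 peaks, and the part of list length in the balance was not tested beyond the equal-number setting. In that setting, with 19092 peaks from every library, the density ratio of wild-type HP1a over wild-type HP1b differed by −0.03 on the log2 scale, against 0.71 with all peaks.

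Fold enrichment, the authors' value for each peak, was lower in distal 1q than on chr1 5 to 120 Mb in all 8 libraries. The medians were 3.13 and 3.097 for HP1a in HP1b knockdown cells, against 3.35 and 3.31 on chr1 5 to 120 Mb. In wild-type HP1a they were 3.07 and 3.06, against 3.28 and 3.25. In HP1b of HP1a knockdown cells they were 2.55 and 2.52, against 2.78 and 2.74, and in wild-type HP1b 2.81 and 2.87, against 2.91 and 3.00. Among peaks of fold 2.9 to 3.1 the −log10 p went the other way: it was higher in distal 1q in all 8 libraries, for example 3.42 and 3.43 against 3.28 and 3.27 in wild-type HP1a, and 4.44 and 4.51 against 3.82 and 3.84 in HP1b of HP1a knockdown cells. At 1 fold value, then, a distal 1q peak carried the smaller p.

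**Figure D2:**
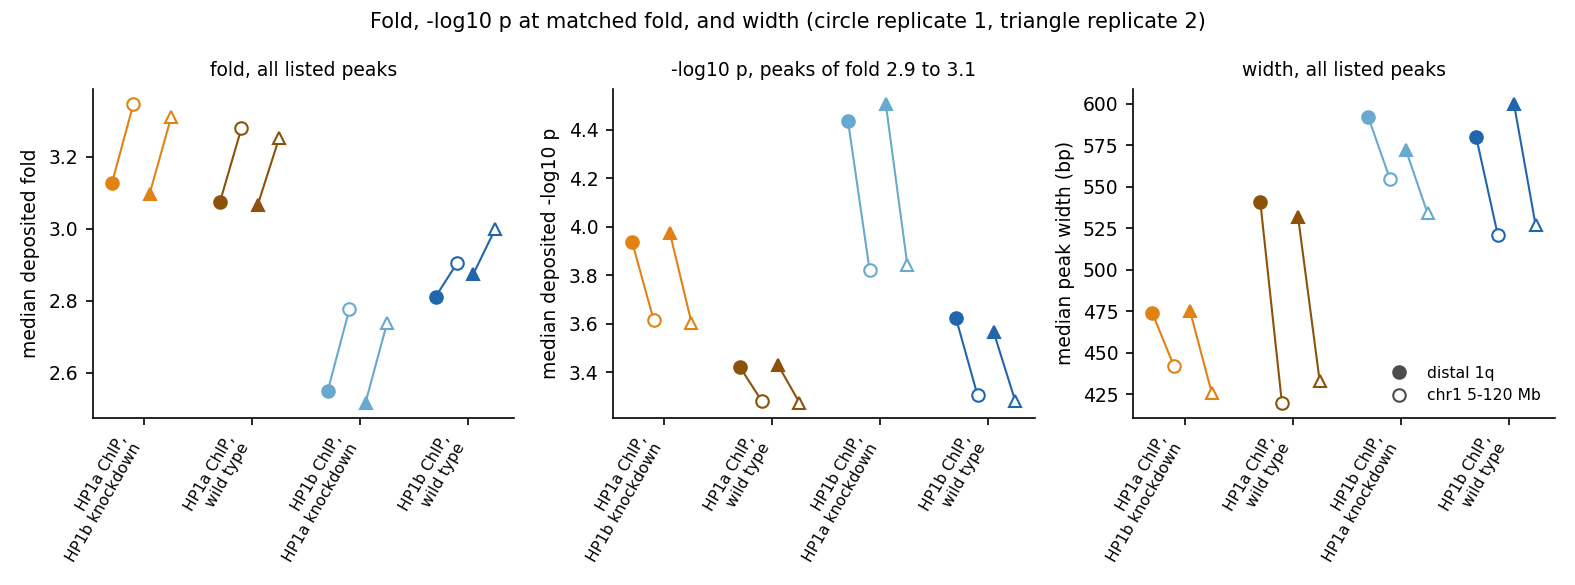
Median fold of all listed peaks, median −log10 p of peaks of fold 2.9 to 3.1, and median width in bp, for distal 1q (filled) and chr1 5 to 120 Mb (open), joined by library; the axes do not start at 0. Fold is lower and −log10 p at matched fold and width are higher in distal 1q in every library.

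Peaks of distal 1q were also wider. Median width was 474 and 475 bp for HP1a in HP1b knockdown cells, against 541 and 532 bp in wild-type cells, with medians of 442, 426, 420 and 433 bp on chr1 5 to 120 Mb. For HP1b it was 592 and 572 bp in HP1a knockdown cells, against 580 and 600 bp in wild-type cells, which overlap. The knockdown minus wild-type difference was −62 bp for HP1a (exact permutation test, two-sided p = 0.333, the smallest that 2 against 2 libraries allow) and −8 bp for HP1b (p = 0.667, same exact test). With an equal number of peaks from every library the HP1a difference turned to 116 bp and the HP1b difference to 102 bp. Peaks of at least 4 kb numbered 0 and 1 for HP1a in HP1b knockdown cells, against 18 and 14 in wild-type cells, and 50 and 62 for HP1b in HP1a knockdown cells, against 53 and 67 in wild-type cells.

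Several of the widest and strongest peaks lay in 1 gene. By this rank ZNF678, a KRAB zinc finger gene (chr1:227563556-227679669), held the widest wild-type HP1a peaks (6917 and 9542 bp). It also held the widest HP1b peaks of HP1a knockdown cells (10423 and 13844 bp), where the first library alone had a peak of 11849 bp. The wild-type HP1b peaks of highest fold found in both libraries (5.66 and 5.85) lay in it too. The highest-fold wild-type HP1a peak found in both libraries, at 5.34 and 4.82, lay in XPR1, a phosphate exporter gene. For wild-type HP1b the widest by this rank were 11798 and 11978 bp, 32749 bp from RNF187. The widest peak of the first wild-type HP1b library taken alone was 20875 bp. HP1a in HP1b knockdown cells had its widest peaks, 2900 and 4888 bp, 16563 bp from HAX1. A peak of 222 and 169 bp with fold 4.82 and 5.0003, 203426 bp from NR5A2, was the highest found in both HP1b libraries of HP1a knockdown cells and was met in no wild-type library.

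Peaks met in both replicates of a group were more numerous in distal 1q than on chr1 5 to 120 Mb. In distal 1q, 105 regions were met in both HP1a libraries of HP1b knockdown cells, against 3549 in wild-type cells, and 4081 in both HP1b libraries of HP1a knockdown cells, against 5540 in wild-type cells. The matching numbers on chr1 5 to 120 Mb were 27, 619, 2205 and 2385. Of the peaks of the first replicate in distal 1q, 9.25% met the second for HP1a in HP1b knockdown cells, 32.6% for HP1a in wild-type cells, 55.4% for HP1b in HP1a knockdown cells and 49.4% for HP1b in wild-type cells. Of the 105 regions found in both HP1a libraries of HP1b knockdown cells, 92 (87.6%) met a peak of at least 1 wild-type HP1a library, 59 met both, and 90 (85.7%) met both HP1b libraries of HP1a knockdown cells. A denser list meets more peaks by its extent alone, and the part of that was not tested.

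Within the arm the peaks were uneven. In blocks of 24 Mb, the last (219 to 243 Mb, 141 genes) had the highest density in all 8 libraries. It held 40.5 and 39.4% of the covered bases of distal 1q for HP1a in HP1b knockdown cells, against 35.4 and 36.1% in wild-type cells, and 37.2 and 38.0% for HP1b in HP1a knockdown cells, against 34.9 and 34.3% in wild-type cells. The first block (147 to 171 Mb, 437 genes) held 15.8 and 19.6% for HP1a in HP1b knockdown cells, against 19.1 and 18.6% in wild-type cells, which overlap. It held 16.3 and 16.7% for HP1b in HP1a knockdown cells, against 20.1 and 20.3% in wild-type cells. The gene-poorest block (171 to 195 Mb, 110 genes) held 25.7 and 22.1% for HP1b in HP1a knockdown cells, against 19.4 and 18.8% in wild-type cells.

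As a share of its covered bases in the arm, HP1b in HP1a knockdown cells thus lay more in gene-poor and less in gene-rich parts than in wild-type cells. Its peaks did not cover more of the gene-poorest block itself, with a mean of 6.80%, against 7.19% in wild-type cells. From 200 to 205 Mb (67 genes, chosen after its values were seen) peaks covered 3.896 and 9.11% for HP1b in HP1a knockdown cells, against 13.2 and 17.1% in wild-type cells. From 185 to 200 Mb (39 genes, likewise) they covered 5.65 and 5.98%, against 4.63 and 5.01%. Over the 96 bins of 1 Mb, Spearman's rho of covered share with gene number was −0.42 and −0.12 in HP1b of HP1a knockdown cells, 0.26 and 0.38 in HP1b of wild-type cells, 0.13 and 0.30 in HP1a of HP1b knockdown cells, and 0.36 and 0.22 in HP1a of wild-type cells, as a description over bins of 1 library. The first HP1b library of HP1a knockdown cells stands apart: its bin profile had rho of 0.26 to 0.40 with the 4 wild-type libraries, where the second had 0.68 to 0.77. Shares of distal 1q bases in gene bodies were 35.4 and 39.3% for HP1b in HP1a knockdown cells, against 40.7 and 42.2% in wild-type cells, a difference of −4.13 percentage points (exact permutation test, two-sided p = 0.333, the smallest possible), and −2.19 without that library. For HP1a the shares were 37.8 and 37.9% in HP1b knockdown cells, against 43.9 and 40.8% in wild-type cells (−4.47 points, exact permutation p = 0.333), and gene bodies take up 48.0% of the region.

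**Figure D3:**
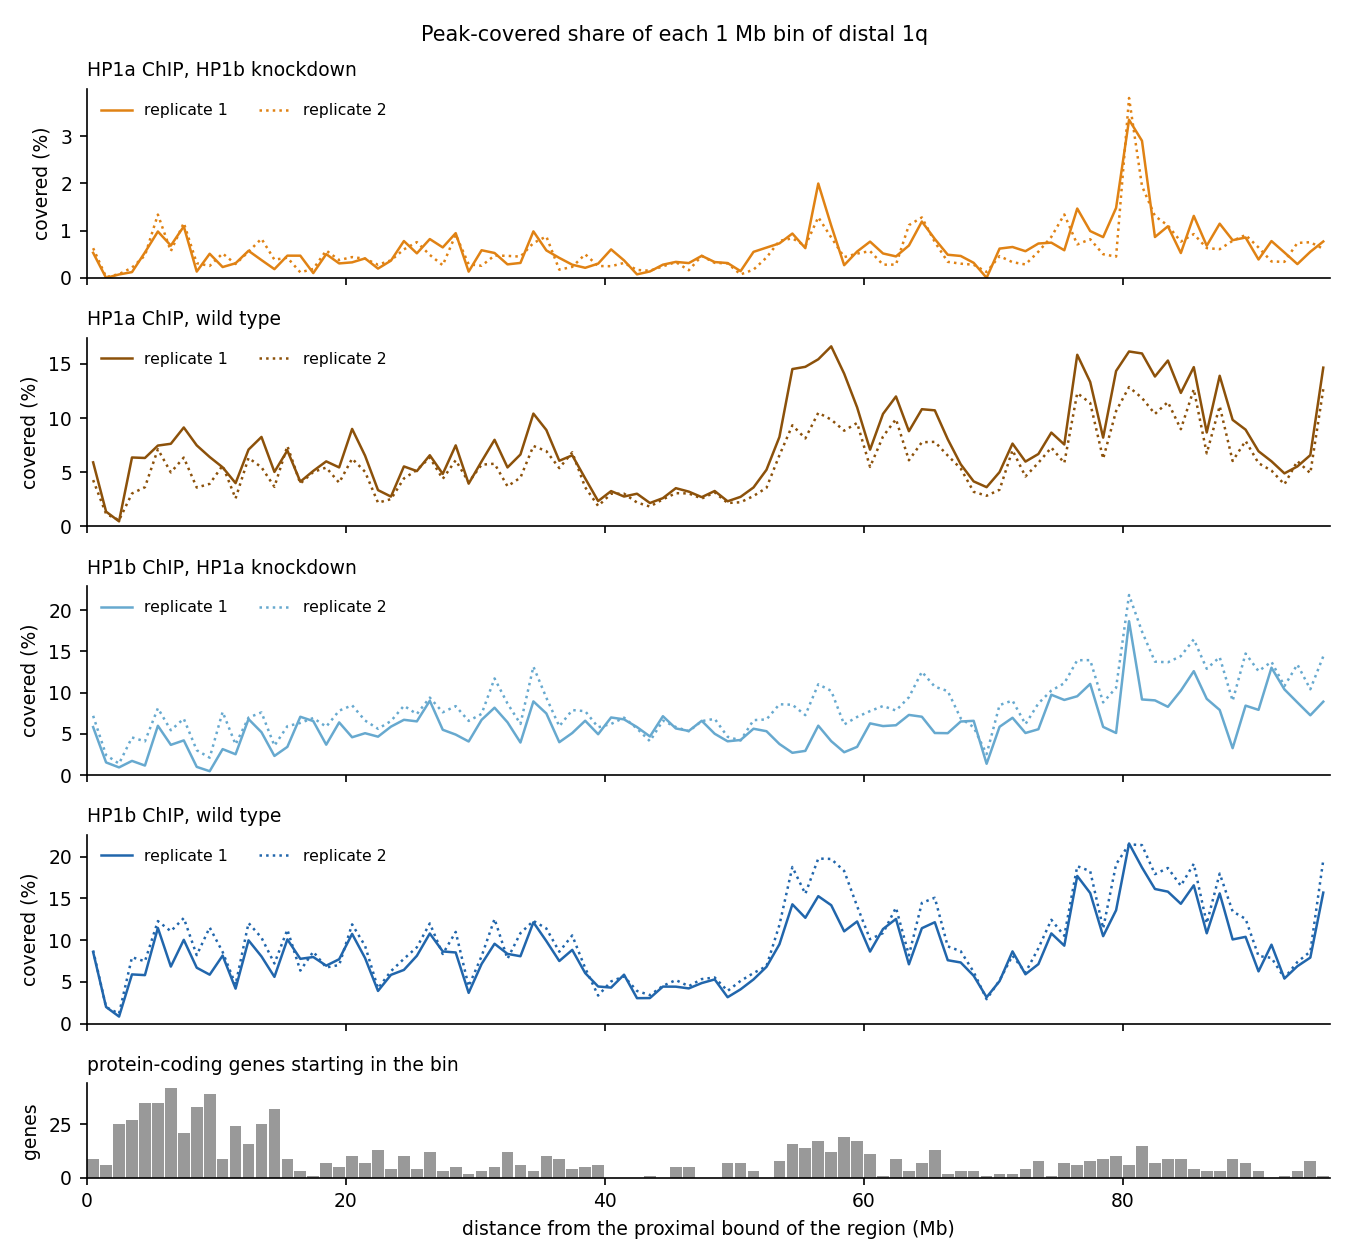
Percent of each 1 Mb bin covered by peaks along distal 1q (x axis, distance from the proximal bound in Mb), 1 panel per group with its 2 replicates, and below the number of protein-coding genes starting in each bin; the y axes differ between panels. Wild-type HP1a and HP1b share their hills and valleys, and the hill at 53 to 58 Mb, 8.88 to 17.1% in wild-type libraries, is at 3.896 and 9.11% in HP1b of HP1a knockdown cells.

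The bounds follow the lists unevenly. The last bin before the region (146 to 147 Mb) was covered to 0.303 and 0.401% in wild-type HP1a and to 0.928 and 0.590% in wild-type HP1b. The bin just inside (147 to 148 Mb) was covered to 5.92 and 4.28%, and to 8.58 and 8.76%. At the far bound the bin just inside (242 to 243 Mb) was covered to 14.7 and 12.7%, and to 15.7 and 19.6%, and the bin just outside (243 to 244 Mb) to 4.85 and 3.87%, and to 6.10 and 7.55%. The first Mb past the far bound was thus covered less than the last Mb inside it.

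For HP1a with HP1b knocked down, relative coverage (the bases of a bin or gene under peaks, scaled to each library's total of such bases, with 1 kb added on each side of a gene) was compared with wild type by limma. Of the 96 bins, 1 was higher and 33 were lower; of all 2878 bins tested 14.9% were called, 7.3% higher and 7.64% lower, at a Benjamini-Hochberg adjusted p under 0.05. The median log2 change was −0.74 in the region and −0.34 over all bins. Both numbers rest on the contrast that the region was picked with, so nothing is read from them. The bin that passed the test upward was 227 to 228 Mb, which holds ZNF678 and WNT9A (log2 0.70 ± 0.18 SE, limma adjusted p = 0.047): peaks covered 3.35 and 3.81% of it in HP1b knockdown cells, against 16.2 and 12.9% in wild-type cells. Its direction turned with equal peak numbers (log2 −0.77) and without scaling (−1.98). The lowest was 209 to 210 Mb, with CAMK1G and LAMB3 (log2 −1.96 ± 0.25, limma adjusted p = 0.0048), covered to 0.454 and 0.280%, against 12.0 and 9.91%. The number of bins called was 6 and 11 without the first and the second wild-type library, 63 and 62 without either knockdown library, 11 with equal peak numbers and 0 at a −log10 p of at least 4. Without scaling, all 96 bins were lower.

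Among 548 genes of distal 1q tested, 4 were higher and 188 lower in relative coverage of HP1a with HP1b knocked down; of all 8878 genes 28.6% were called, 1.7% higher and 26.9% lower (limma, adjusted p under 0.05). ZNF678 had the highest mean covered share of the genes of at least 10 kb in all 4 groups: HP1a peaks covered 13.1 and 14.8% of it in HP1b knockdown cells, against 44.6 and 44.4% in wild-type cells. Since it lost less than the library as a whole, its relative coverage was higher (log2 1.05 ± 0.12, limma adjusted p = 0.031), but it was lower with equal peak numbers (−1.38) and without scaling (−1.66). MROH9 was covered to 1.05 and 1.22%, against 1.06 and 1.03%, which overlap in covered share, and rose in relative coverage (log2 2.51 ± 0.47, limma adjusted p = 0.039).

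FLG, the filaggrin gene of the outer epidermis, was the 1 of the 4 higher genes whose covered share itself lay above wild type in both knockdown libraries. HP1a peaks covered 6.15 and 14.1% of it (chr1:152302165-152325239) in HP1b knockdown cells, against 4.68 and 4.40% in wild-type cells, although the knockdown lists are shorter. Its relative coverage was higher (log2 3.35 ± 0.64, limma adjusted p = 0.040). HP1b peaks covered 22.5 and 33.9% of it in HP1a knockdown cells, against 9.02 and 9.35% in wild-type cells (log2 1.61 ± 0.35, limma adjusted p = 0.15). All libraries of each knockdown lay above those of their wild type. FLG was chosen with earlier results known and has 1 of the 4 highest test statistics of the HP1a comparison. For HP1a this order is thus partly built into the choice, and the share of all genes that show it is not given here. FLG consists largely of near-identical repeats, and how reads with several matches were placed is not given in the sources used here.

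Of the named genes that fell, all described here but RYR2 were listed at 0 in knockdown cells, so no fold is given for them. CAPN9, a calpain gene of the digestive tract, was covered to 21.2 and 21.9% by HP1a peaks in wild-type cells and listed at 0 in both HP1b knockdown libraries (limma adjusted p = 0.031). CAMK1G, a calcium/calmodulin-dependent kinase gene, was listed at 0 in both knockdown libraries, against 21.5 and 30.9% in wild-type cells (limma adjusted p = 0.031). ATP2B4, a plasma membrane calcium pump gene, was listed at 0 in both knockdown libraries too, against 10.4 and 9.01% (limma adjusted p = 0.031). RYR2, the cardiac ryanodine receptor gene, kept 0.335 and 0.308%, against 5.53 and 4.34% (log2 −1.18 ± 0.17, limma adjusted p = 0.031). These gene calls ended under several settings: 0 genes of distal 1q passed with equal peak numbers, at a −log10 p of at least 4, with a pseudocount 4 times as large, without the filter or without the first wild-type HP1a library, and 2 without the second. Counted by presence, 266 of 521 genes with a peak in both wild-type HP1a libraries had none in either knockdown library (51.1%, against 47% of all such genes), and 0 of 117 went the other way (2.82% of all such genes).

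For HP1b with HP1a knocked down, 7 of 96 bins were higher and 19 lower in relative coverage; of all 2891 bins 19.1% were called, 7.06% higher and 12% lower (limma, adjusted p under 0.05). The median log2 change was −0.12 in the region and −0.10 over all bins. The region was chosen with results of this comparison known, so these numbers and the bins below are a description. The higher bins with the largest statistics were 238 to 241 Mb, a stretch with CHRM3, FMN2 and RGS7. In 239 to 240 Mb peaks covered 10.4 and 10.8% in HP1a knockdown cells, against 5.41 and 5.46% in wild-type cells (log2 0.91 ± 0.16, limma adjusted p = 0.0063). The lowest bin was 156 to 157 Mb, with LMNA and 39 genes in all, covered to 0.467 and 2.10%, against 5.87 and 11.5% (log2 −1.67 ± 0.27, limma adjusted p = 0.0043). The count was 9 and 2 without the first and the second wild-type library, 31 and 56 without the first and the second knockdown library, 1 with equal peak numbers, 6 at a −log10 p of at least 4 and 0 without the filter. Without scaling 0 bins were higher and 7 lower.

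No gene of distal 1q passed the test in that comparison (0 of 655 by limma at an adjusted p under 0.05, as for 0% of 13101 genes, with 223 at an unadjusted p under 0.05). The count was 16 and 8 without the first and the second wild-type library, and 63 and 166 without the first and the second knockdown library. Some named genes lay higher in covered share. KCNH1, a voltage-gated potassium channel gene, was covered to 8.78 and 11.2% by HP1b peaks in HP1a knockdown cells, against 4.75 and 4.47% in wild-type cells. CHRM3, the muscarinic M3 receptor gene, had 10.01 and 10.7%, against 5.97 and 5.12%. RGS7, a regulator of G protein signalling, had 10.2 and 11.5%, against 5.16 and 5.22%, and RYR2 7.35 and 11.1%, against 4.61 and 5.89%. In all 4 genes both knockdown libraries lay above both wild-type libraries, and none passed the test (limma adjusted p = 0.15 each). KCNH1, CHRM3 and RGS7 were named for the highest test statistics of this comparison, so their lack of overlap is partly built into the choice. The share of all genes without overlap is not given here. Genes whose libraries lay on opposite sides of wild type in the 2 knockdowns, RYR2 and KCNH1 among them, numbered 26 of 519 in distal 1q, against 5.31% of 8473 genes.

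Other genes lay lower, again with none past the test. PLEKHA6, a gene of a cell junction protein, had 2.08 and 1.28% in HP1a knockdown cells, against 14.7 and 20.6% in wild-type cells. CAMK1G had 0 and 0.965%, against 21.6 and 27.4%. PKP1, the desmosomal plakophilin 1, had 2.03 and 10.3%, against 22.4 and 32.1%. TGFB2, a ligand of the TGF-beta pathway, had 0.806 and 5.77%, against 14.7 and 15.7%. Groups did not overlap in any of these genes. PLEKHA6 and CAMK1G were named for the lowest test statistics of this comparison, so for them this is partly built into the choice. PKP1 and TGFB2 were chosen with earlier results of these data known. How many of all genes show no overlap is not given here. Counted by presence, 114 of 592 genes with a peak in both wild-type HP1b libraries had none in either knockdown library (19.3%, against 14.2% of all such genes), and 8 of 353 went the other way (2.61% of all such genes).

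**Figure D4:**
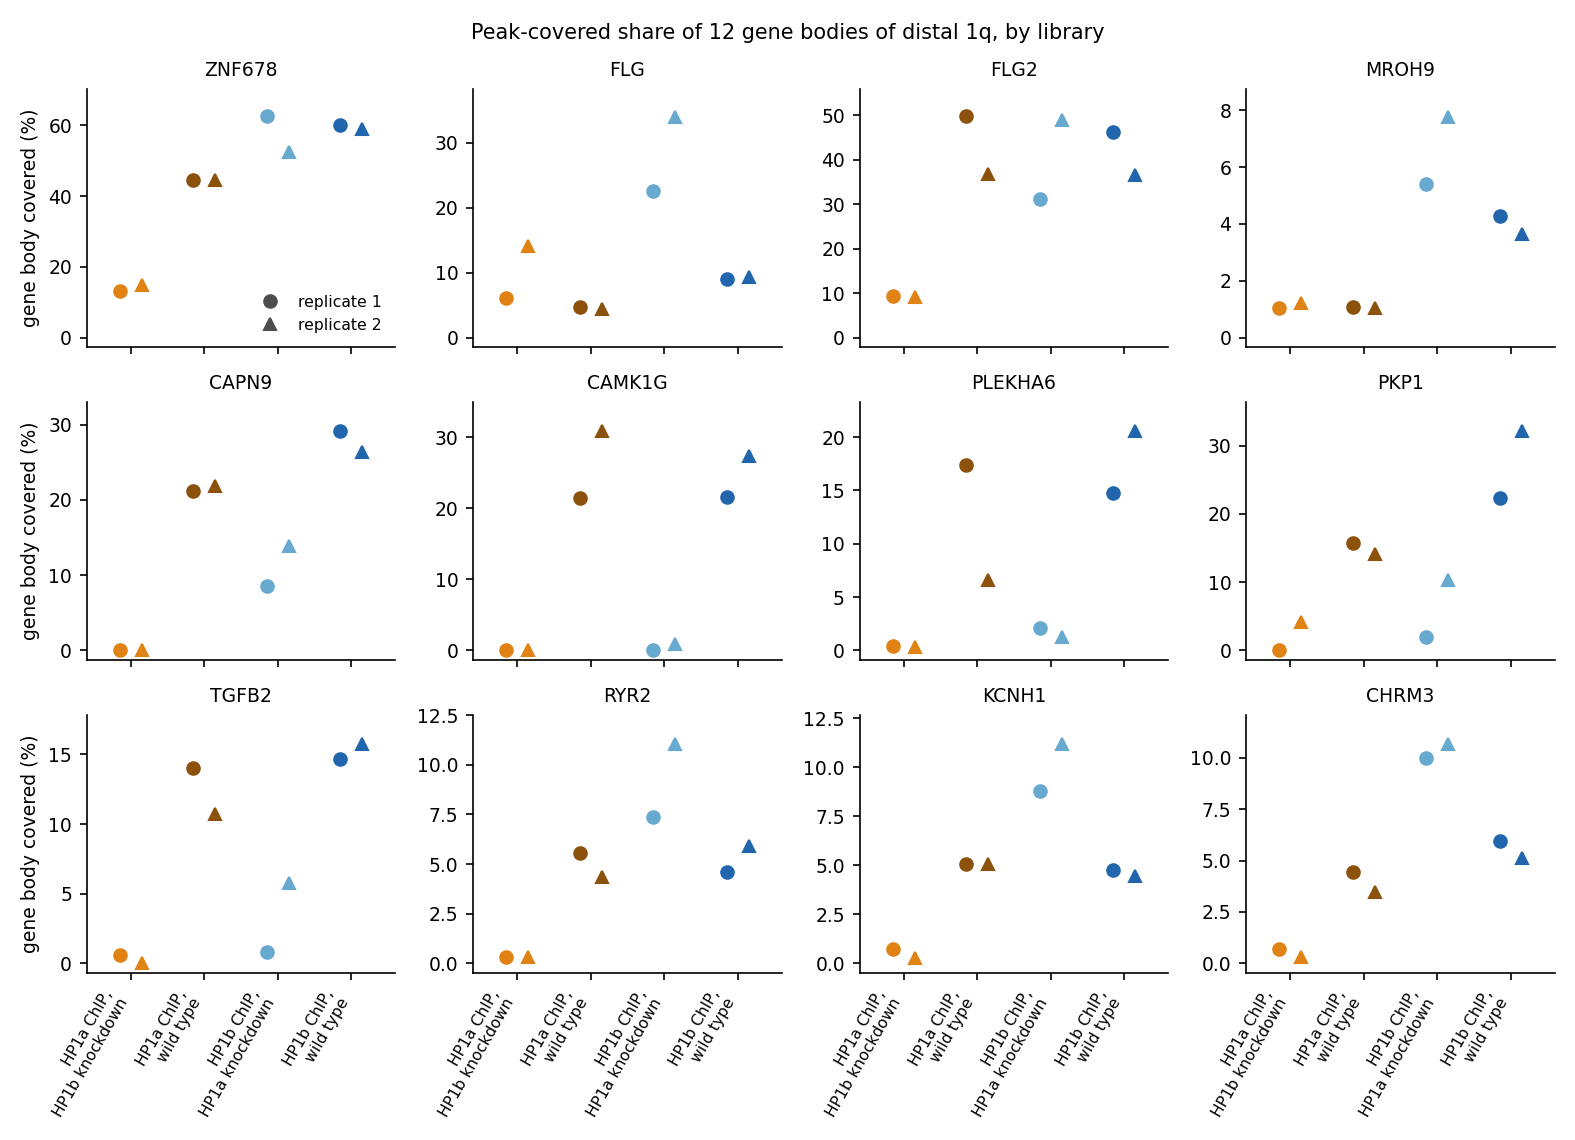
Percent of the gene body covered by peaks for 12 genes of distal 1q, 1 point per library (circle replicate 1, triangle replicate 2), by group; the y axes differ between panels. ZNF678 keeps 13.1 and 14.8% in HP1a of HP1b knockdown cells, FLG lies above wild type in both knockdowns, CAPN9 and CAMK1G are at 0 for HP1a in HP1b knockdown cells, and RYR2, KCNH1 and CHRM3 lie above wild type for HP1b in HP1a knockdown cells.

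For HP1a over HP1b in wild-type cells, 76 of 96 bins were higher and 0 lower in relative coverage; of all 2888 bins 9.18% were called, 5.37% higher and 3.81% lower (limma, adjusted p under 0.05). The region was chosen by this balance, so the count and the bins below are a description. By moderated t the highest was 210 to 211 Mb, with KCNH1 and HHAT, covered to 8.79 and 6.11% by HP1a, against 7.11 and 8.19% by HP1b (log2 1.04 ± 0.14 SE). The next were 218 to 219 Mb, with TGFB2 (log2 0.93 ± 0.13 SE), and 176 to 177 Mb, with PAPPA2 and ASTN1 (log2 0.95 ± 0.14 SE). The lowest, 170 to 171 Mb with MROH9, was near parity (log2 0.06 ± 0.13 SE). The count fell to 0 with equal peak numbers, at a −log10 p of at least 4 and without the filter, and to 12 without the first wild-type HP1b library. Without scaling, 0 bins were higher and 66 lower.

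No gene passed in this comparison (0 of 697 by limma at an adjusted p under 0.05, as for 0% of 13090 genes, with 126 at an unadjusted p under 0.05). The count was 44 and 70 without the first and the second HP1a library, and 3 without the second HP1b library. ASTN1, of neuronal migration, had 6.39 and 5.80% for HP1a, against 4.78 and 4.97% for HP1b, with no overlap. NID1, the basement membrane gene nidogen 1, had 20.1 and 18.2% for HP1a, against 20.4 and 19.8% for HP1b. DEGS1, of ceramide synthesis, was listed at 0 for HP1a, against 8.79 and 7.70% for HP1b. ASTN1 and NID1 were named for the highest test statistics of this comparison and DEGS1 for the lowest. The lack of overlap in ASTN1 and DEGS1 is thus partly built into the choice. How many of all genes show no overlap is not given here. Of 592 genes with a peak in both HP1b libraries, 22 had none in either HP1a library (3.72%, against 11.9% of all such genes), and 4 of 521 went the other way (1.47% of all such genes).

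Gene clusters of the arm were covered to different extents. These lists were chosen with earlier results known and carry no test. In the epidermal differentiation complex, the cluster of cornified envelope genes, 42 of 46 genes had a peak in at least 1 library. Their mean covered share was 1.29 and 1.47% for HP1a in HP1b knockdown cells, against 9.99 and 9.40% in wild-type cells, and 4.80 and 8.80% for HP1b in HP1a knockdown cells, against 10.52 and 16.8% in wild-type cells. The mean over all 865 genes was 0.463 and 0.429%, against 6.97 and 4.61%, and 2.44 and 4.82%, against 6.84 and 9.37%. Of 24 members tested for HP1a, 1 was higher (FLG) and 8 lower with HP1b knocked down (median log2 −1.01), beside 188 of 548 lower in the region (median log2 −1.57) and 26.9% lower of all genes. FLG2, of the filaggrin family, was covered to 9.29 and 9.19% by HP1a in HP1b knockdown cells, against 49.7 and 36.8% in wild-type cells, and to 31.1 and 48.8% by HP1b in HP1a knockdown cells, against 46.2 and 36.5% in wild-type cells.

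The complement regulators, which restrain complement on cells and in plasma, were the list whose mean HP1b coverage was higher in HP1a knockdown cells: 6.22 and 8.34%, against 4.90 and 6.91% in wild-type cells, which overlap. For HP1a they averaged 0.356 and 0.345% in HP1b knockdown cells, against 3.61 and 2.56%, with 3 of 9 members lower and 0 higher (median log2 −0.68), a share near the 26.9% of all genes. Epithelial adhesion and polarity genes went the other way, with 0.842 and 2.23% for HP1b in HP1a knockdown cells, against 8.96 and 8.97% in wild-type cells. In HP1a they had 0.0275 and 0.677% in HP1b knockdown cells, against 7.48 and 4.75%, with 3 of 10 members lower and 0 higher (median log2 −2.07), again near the 26.9% of all genes. ELF3, an epithelial transcription factor gene of that list, was listed at 0 by HP1b in both HP1a knockdown libraries, against 39.7 and 22.1% in wild-type cells. Its laminin member LAMB3 was likewise at 0, against 2.98 and 5.85%.

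Ion channel and neuronal genes (30 genes, all with a peak) had 0.544 and 0.424% for HP1a in HP1b knockdown cells, against 9.84 and 6.80%, with 8 of 30 lower and 0 higher (median log2 −1.26), which is also near the 26.9% of all genes. Their HP1b coverage was 4.66 and 7.83% in HP1a knockdown cells, against 9.32 and 10.9% in wild-type cells. Chromatin and nuclear envelope genes lay low, with 0.204 and 0.117% for HP1a in HP1b knockdown cells, against 3.91 and 2.03%, and 0.768 and 2.44% for HP1b in HP1a knockdown cells, against 2.80 and 3.91%. LMNA, of lamin A and C, was listed at 0 by HP1b in both HP1a knockdown libraries, against 0.971 and 7.52% in wild-type cells. LBR, the lamin B receptor, had a peak in 1 of 8 libraries, and SETDB1, an H3K9 methyltransferase, had HP1b peaks over 1.99 and 4.63% in HP1a knockdown cells, against 2.69 and 5.96% in wild-type cells.

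In the other lists, too, HP1a coverage was lower in HP1b knockdown cells than in wild-type cells. S100A genes, of calcium-binding proteins, had no HP1a peak in HP1b knockdown cells, against means of 6.73 and 2.79% in wild-type cells, and 2.04 and 4.34% for HP1b in HP1a knockdown cells, against 3.37 and 12.5%. CD1 and Fc receptor genes, of antigen and antibody recognition, had 0.466 and 0.407% for HP1a, against 6.22 and 4.84%, and 1.82 and 5.91% for HP1b, against 8.80 and 8.64%. SLAM and selectin genes, of leukocyte contacts, had 0.321 and 0.739% for HP1a, against 10.2 and 4.72%, and 5.51 and 9.89% for HP1b, against 8.68 and 10.2%. TGF-beta and growth factor genes had 1.02 and 1.61% for HP1a, against 14.3 and 6.64%, and 4.24 and 8.99% for HP1b, against 12.0 and 17.6%. Olfactory receptor genes had 0.114 and 0% for HP1a, against 4.89 and 2.40%, and 2.51 and 2.45% for HP1b, against 3.69 and 4.55%. Of 15 histone cluster genes, 3 had a peak in any library. The 7 zinc finger genes, ZNF678 among them, had 1.87 and 3.33% for HP1a, against 8.58 and 10.49%, and 10.7 and 10.6% for HP1b, against 10.7 and 12.7%.

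Promoter windows were available for 745 of the 865 genes. HP1a peaks met 6 and 4 windows in HP1b knockdown cells, against 60 and 38 (8.05 and 5.10%) in wild-type cells. HP1b peaks met 11 and 29 (1.48 and 3.89%) in HP1a knockdown cells, against 47 and 74 (6.31 and 9.93%) in wild-type cells. Of all 15812 windows, 1.85 and 1.34% were met by wild-type HP1a and 3.26 and 4.14% by wild-type HP1b. In HP1b of HP1a knockdown cells the share in distal 1q was near that of all windows (1.71 and 3.33%).

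The windows met were poor in CG (the letters CG, read the same on both strands), as the printed SH2D1B, LELP1, CRNN and S100A7 windows show. Of all 745 windows, 31.4% hold at most 5 CG. Among windows met by wild-type HP1a the share was 73.3 and 86.8%, and among those met by wild-type HP1b 66.0 and 64.9%. It was 72.7 and 72.4% in HP1b of HP1a knockdown cells. For HP1a in HP1b knockdown cells, it was 33.3% of 6 windows and 2 of 4. The median number of CG was 3.5 and 3 in windows met by wild-type HP1a, against 19 and 18 in those not met. Over all 15812 windows of the genome, 19.5% hold at most 5 CG, and 51.4 and 64.6% of those met by wild-type HP1a do. ESRRG, with 23 CG, is one of the exceptions.

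**Figure D5:**
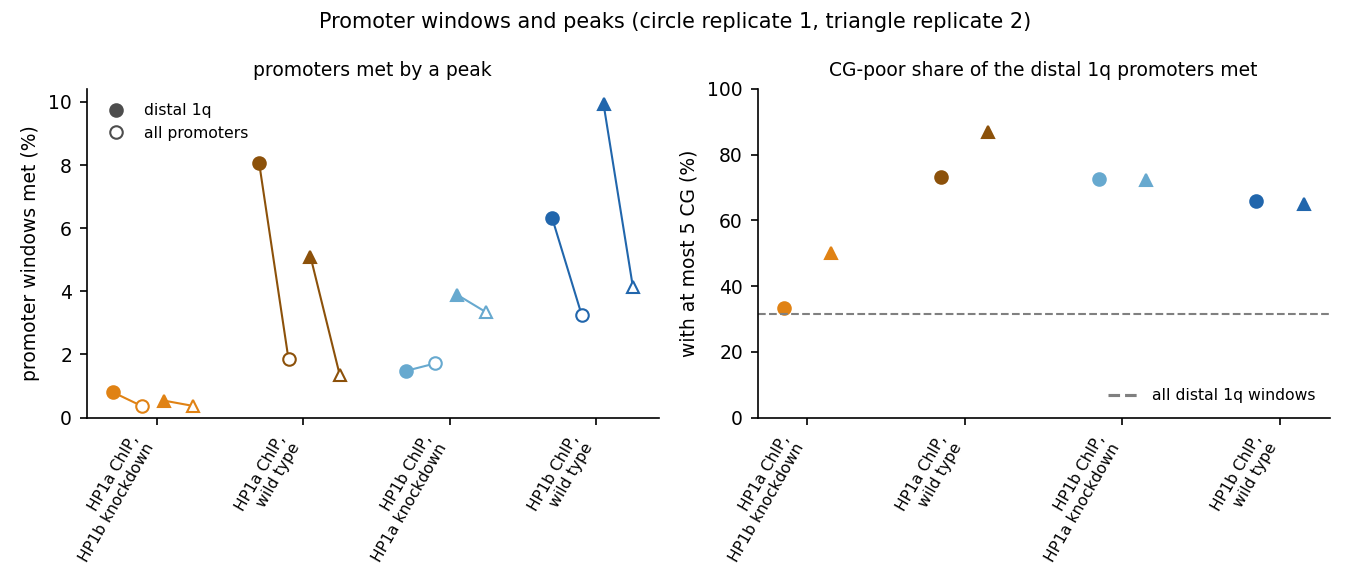
Left, percent of promoter windows met by a peak in distal 1q (filled) and over all promoters (open), joined by library; right, percent of the distal 1q windows met that hold at most 5 CG, with a dashed line at the share of all distal 1q windows (31.4%). Wild-type libraries met 5.10 to 9.93% of the distal 1q windows, and CG-poor windows make up 64.9 to 86.8% of those met.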

How the data were processed

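The deposited files are broad peak lists on hg38. Trimmomatic, Bowtie2, SAMtools and MACS3 are named per the submitters' processing notes. Neither versions nor settings nor any input library is given in the sources used here. The authors' lists give per peak the start and end, a deposited score (10 times the −log10 q), the authors' fold enrichment as a ratio, and the deposited −log10 p and −log10 q, the lowest −log10 q being 1.00. They hold no read counts, so depth is unknown and no counting error could be set; a place without a peak is not one without the protein.

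The members, gene lists and tests were chosen with earlier results of these data known. Only autosomal and X peaks entered (99.1 to 99.7% of each list), and overlapping peaks were merged when bases were counted. Gene bounds came from RefSeq (GRCh38.p14, 19974 protein-coding genes), and an overlap needs at least 1 base. Bins of 1 Mb and gene bodies with 1 kb flanks were fitted over the whole genome with limma 3.58.1 (R 4.3.3; moderated t with a trend). The fit used log2 values of relative coverage, after adding as pseudocount the 10th percentile of the non-zero values. A feature needed a peak in at least 2 of 4 libraries. Calls used a Benjamini-Hochberg adjusted p under 0.05. The scripts were tested on simulated data. Single values were compared with exact permutation tests (Python 3.11.15).

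Named genes were 12 chosen ones (among them LMNA, TGFB2, FLG, RYR2 and ZNF678), the 4 lowest and 4 highest by moderated t per comparison, the 3 most covered of at least 10 kb per group, the 3 of highest fold per wild-type ChIP, and up to 2 per list; LELP1, PRSS38, SH2D1B and CRNN were chosen by the number of libraries that met their promoters. Some genes that the rule names are not reported here. Alternatives were equal peak numbers, stricter p and q limits, no scaling, a larger pseudocount, no filter, a replicate block, other bins, flanks and bounds, and leaving out each library.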

Additional observations from a re-analysis of the deposited data

Results flagged for a closer look

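For 3 named genes and 6 named bins the knockdown libraries of the 2 ChIPs lay on opposite sides of their wild types, with no overlap, in relative coverage: lower for HP1a in HP1b knockdown cells and higher for HP1b in HP1a knockdown cells. The difference between the 2 knockdown effects was not tested. Over all genes with a peak in at least 2 libraries of both ChIPs, 5.31% of 8473 did so in either direction. In distal 1q it was 26 of 519, or 5.01%. The share of all bins that did so was not counted. The bins, KCNH1 and NID1 were named by their moderated t in the comparisons reported here, so such movement is partly built into the choice.

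The difference of the log2 changes (HP1a minus HP1b) was −2.14 for RYR2, −2.01 for KCNH1 and −1.05 for NID1. It was −1.65 in the bin at 176 to 177 Mb, −0.62 at 188 to 189 Mb, −1.18 at 218 to 219 Mb, −1.28 at 238 to 239 Mb, −1.44 at 239 to 240 Mb and −1.42 at 240 to 241 Mb. In RYR2 the log2 change was −1.18 for HP1a and 0.96 for HP1b, and in KCNH1 −0.75 and 1.26. The bins at 238 to 241 Mb hold CHRM3, FMN2 and RGS7. With 2 libraries a group, no group was large enough to look for a single library out of range.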

How the results depend on the processing

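Depth is unknown and 2 libraries a group limit every value. The log2 difference in density ratio (distal 1q over chr1 5 to 120 Mb) was −0.48 for HP1a with HP1b knocked down, 0.03 for HP1b with HP1a knocked down and 0.71 for HP1a over HP1b. In that order, equal peak numbers gave −0.31, 0.31 and −0.031; a −log10 p of at least 4 gave 0.043, 0.13 and −0.017; a −log10 q of at least 2 gave 0.085, −0.031 and −0.035; covered bases gave −0.79, −0.13 and 0.83. A comparison interval of 20 to 120 Mb gave −0.28 for HP1a with HP1b knocked down. Leaving out 1 library gave −0.51 to −0.45, −0.018 to 0.070 and 0.67 to 0.75. Width differences turned to 116 bp (HP1a, equal numbers), and 102 bp (equal numbers) and 120 bp (−log10 p of at least 4) for HP1b; leave-one-out ranges were −66.5 to −57.5, −18 to 2 and −63.5 to −43.5 bp. Gene-body differences ranged over −6.00 to −2.94, −6.07 to −2.19 and −0.63 to 2.44 points.

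Bins called (34, 26 and 76) became 11, 1 and 0 with equal numbers; 0, 6 and 0 at a −log10 p of at least 4; 9, 0 and 0 with no filter; and, without scaling, 96 and 7 for the knockdowns of HP1b and HP1a. Bins of 250 kb gave 115 for HP1b with HP1a knocked down and 7 for HP1a over HP1b. Leaving out 1 library gave 6 to 63, 2 to 56 and 12 to 80 bins. Genes called for HP1a with HP1b knocked down (192) became 0 with equal numbers, at a −log10 p of at least 4, with the larger pseudocount and with no filter, and 372 without scaling; leaving out 1 library gave 0 to 232, and 8 to 166 and 0 to 70 in the comparisons with 0 calls. Scaling sets the median over all bins to −0.34, −0.10 and −0.06, against −2.62, −0.21 and −0.98 without it.

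The replicate numbers are not stated to pair samples, and same-numbered libraries deviated together with correlations of 0.05, 0.32 and −0.21 over bins. A replicate block gave 45 bins for HP1b with HP1a knocked down and 46 for HP1a over HP1b, and called 1 gene (higher, with 0 lower) in place of 192 for HP1a with HP1b knocked down, 42 for HP1b with HP1a knocked down and 1 for HP1a over HP1b.

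Of the 14 genes and 13 bins that were named and called, some reversed. ZNF678 became −1.38 with equal numbers and −1.66 without scaling, and the bin at 227 to 228 Mb −0.77 and −1.98. In HP1a over HP1b, 210 to 211 Mb became −0.048, 218 to 219 Mb −0.17 and 176 to 177 Mb −0.013 without scaling, and 218 to 219 Mb −0.093 with equal numbers and −0.023 at a −log10 p of at least 4. The cause was not tested.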

Other observations

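Peaks went on beyond the far bound of the region. From 243 Mb to the end of the long arm at 248.9 Mb (76 genes, among them an olfactory receptor cluster), HP1a ChIP listed 19.4 and 18.7 peaks per Mb in HP1b knockdown cells, against 141 and 110 in wild-type cells. HP1b ChIP listed 109 and 160 peaks per Mb in HP1a knockdown cells, against 137 and 145 in wild-type cells, which overlap. Peaks covered 1.20 and 1.10% of that stretch for HP1a in HP1b knockdown cells, against 9.91 and 8.04% in wild-type cells, and 10.6 and 14.4% for HP1b in HP1a knockdown cells, against 10.9 and 12.5% in wild-type cells.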
